A study of Rattus norvegicus with 18 samples.

Results

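In the Zucker diabetic fatty (ZDF) rat, 185 of 13988 genes measured in kidney cortex differed after Roux-en-Y gastric bypass (RYGB) from both the healthy control group and the diabetic group in the same direction. Of these, 87 were higher in the RYGB libraries and 98 were lower. A gene was a member when RYGB minus healthy control and RYGB minus disease had the same sign and each passed limma at an adjusted p below 0.05. Genes were measured when at least 6 of the 18 libraries held at least 10 normalised reads. A gene that only moved back to the lean level fails the first comparison and is no member. The members were the same comparisons' calls, so their differences describe the set and do not support it independently.

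The study sequenced messenger RNA of flash-frozen kidney cortex in 3 groups of 6 libraries. Healthy control rats were lean and non-diabetic and carried the fa/+ genotype. Disease rats were diabetic and homozygous for fa (fa/fa), a leptin receptor mutation that makes rats obese. The RYGB group was also fa/fa, is likewise labelled diabetic, and had the bypass, in which a small stomach pouch is joined directly to a lower part of the small intestine. The labels do not say whether the other groups had a sham operation, and they give no age, sex, diet or weight. The operation itself and what goes with it (weight, food intake, anaesthesia) therefore cannot be told apart. Whether every library came from its own animal is not stated either, and the p-values reflect only how much these libraries varied.

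The kidney cortex is an endocrine organ as well as a filter. Its proximal tubule makes active vitamin D under control of parathyroid hormone, its interstitial fibroblasts make erythropoietin when oxygen delivery falls, and both hormones act far from the kidney. Red cell formation draws on iron, which cells take up through the transferrin receptor and recover from haem through haem oxygenase.

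Depth, as reads assigned to genes, was 8116638 to 34169198 for the healthy control libraries, 8157977 to 37142922 for disease and 12470525 to 42713246 for RYGB. The summed level of 9 proximal tubule markers lay between 262500 and 668700 normalised reads in every library, and its median was 502400 in healthy control, 453000 in disease and 491100 in RYGB. Healthy control library 4 and RYGB library 3 stood apart on the member genes. Healthy control library 4 also had the fewest reads of the 18 libraries (8116638). On a scale where the mean of both other groups is 0 and the RYGB mean is 1, healthy control library 4 sat at 0.48 over the higher members and 0.53 over the lower members. Disease library 3 sat at 0.46 and 0.20 on these medians, and RYGB library 3 at 0.66 and 0.88. The other 5 RYGB libraries lay between 1.04 and 1.14 for the higher members and between 0.99 and 1.07 for the lower members. Left out alone, healthy control library 4 raised the number of members from 185 to 391, disease library 3 to 290 and RYGB library 3 to 399, and each of 11 other libraries brought it to between 86 and 121. The split between directions moved with it: 240 higher and 159 lower without RYGB library 3, 169 and 121 without disease library 3, and 30 and 56 without RYGB library 6.

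**Figure D1:**
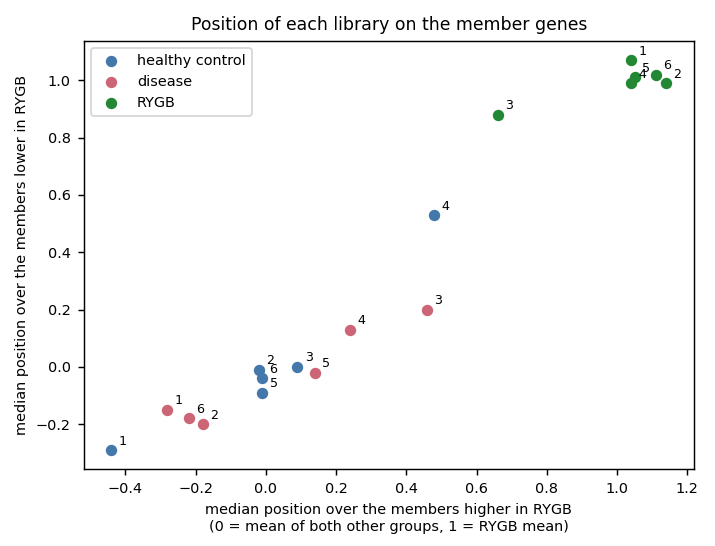
Each point is 1 library, placed by its median position over the 87 higher members (horizontal) and the 98 lower members (vertical), where 0 is the mean of both other groups and 1 the RYGB mean, and numbers are replicates. The members were chosen on these groups, so the gap between green and the rest is built in; healthy control 4 at 0.48 and 0.53 lies between the groups.

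RYGB was first compared with the equal-weight mean of the healthy control and disease groups. That comparison called 963 genes (6.88% of those tested), 524 higher (3.75%) and 439 lower (3.14%). Only 87 of the 524 higher genes and 98 of the 439 lower genes passed against both groups separately. Another 186 higher genes passed against healthy control alone, 96 against disease alone and 155 against neither, and for the lower genes these numbers were 114, 140 and 87. A call against the pooled mean was therefore most often no call against both groups. RYGB against healthy control called 621 genes (4.44%; 2.46% higher and 1.98% lower), and RYGB against disease 552 genes (3.95%; 1.84% higher and 2.1% lower). These comparisons share the RYGB libraries, so the count of 185 (1.32% of all tested, 0.622% higher and 0.701% lower) is the overlap that the membership rule fixes.

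The rule did not use disease against healthy control directly. That comparison is the difference of those that the rule uses, on the same libraries, so its results among the members are not independent of membership. It called 225 genes of the 13988 (1.61%, with 0.579% higher and 1.03% lower in disease) and 1 of the 185 members. That member was Me1, the cytosolic malic enzyme that supplies NADPH for fatty acid synthesis. Me1 had a lowest, median and highest value of 1683, 2718 and 3474 normalised reads in healthy control, 1136, 1489 and 1771 in disease, and 919.3, 970.4 and 1195 in RYGB. The 3 groups thus stepped down in order, with a small overlap between disease and RYGB. Disease lay below healthy control by a log2 difference of -0.84 ± 0.14 (SE, adjusted p = 0.00376), and RYGB lay below disease by a further -0.53 ± 0.14 (adjusted p = 0.0424). This last call was lost when any 1 of 13 libraries was left out (all but healthy control 1, 3 and 4, disease 3 and RYGB 2), with an adjusted p of up to 0.108, and with no mean-variance trend (0.0577). No member had disease called in the direction opposite to RYGB. Without healthy control library 4, disease differed from healthy control for 10 of the then 391 members. Over all fits without 1 library this count ran from 0 to 10. With all libraries it was 14 with DESeq2 and 15 with voom. The count of 1 thus depended on the libraries and the method, and each fit counted over its own members. The median absolute log2 difference between disease and healthy control was 0.07 over the higher members, 0.17 over the lower members and 0.14 over all tested genes.

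Klk1c2, a tissue kallikrein paralogue known from earlier results of these data, shows what the rule leaves out. Its level was 50.9, 82.59 and 115.3 normalised reads in healthy control, 3.395, 9.55 and 16.96 in disease and 67.24, 139.3 and 163 in RYGB. RYGB exceeded disease by a log2 difference of 3.56 ± 0.32, but exceeded healthy control by only 0.61 ± 0.32 (adjusted p = 0.225). Its value after RYGB overlapped the lean range, so it is called against the pooled mean (2.08 ± 0.28) but is no member. Kallikrein paralogues are close copies, and reads that fit several of them were not counted to a gene.

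All 6 RYGB libraries lay beyond all 12 others for 20 of the 87 higher members and 28 of the 98 lower members. Over all genes tested, the share without overlap was 0.536% (0.265% higher and 0.272% lower). Both differences reached at least 1 on the log2 scale for 27 higher and 53 lower members. The lower members were the rarer transcripts: their median mean value was 67.85 normalised reads, against 691.2 for the higher members and 459.1 for all tested genes. A mean under 100 in every group was found for 48 of the lower members and 11 of the higher members. For 5 higher members (Ahsp, Epo, Gzmk, Gzmm and Hif3a) fewer than 6 libraries outside RYGB held 10 normalised reads. These genes entered the test only through the group in which they were high, so neither their calls nor their lack of overlap count as support. In turn, 35 lower members, among them C6, Col6a5, Slpi and Fndc1, reached 10 normalised reads in fewer than 6 RYGB libraries. For 11 of the 35, among them Birc5, Ckap2, Hao1 and Ttk, no RYGB library did. These 35 entered the test only through the other groups, so their calls and lack of overlap do not count as support either.

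Below, the 3 values after a group's name are the lowest, median and highest of its 6 libraries in normalised reads. A difference is the log2 value of RYGB minus the mean of both other groups ± SE, and the adjusted p given is the larger of those against healthy control and against disease. For single genes, an alternative is another method, filter, scaling or model, or a fit without a library. The stricter cutoffs on adjusted p and on the size of the difference were applied to counts only and are not among these alternatives.

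Cyp27b1 encodes the mitochondrial enzyme that makes active vitamin D. It had 30.67, 111.5 and 131.1 in healthy control, 39.2, 120.8 and 171.9 in disease, and 632, 1900 and 4595 in RYGB. The RYGB libraries fell into a low trio (857.6, 632 and 738.8 in replicates 1 to 3) and a high trio (3307, 4595 and 2941 in replicates 4 to 6), and even the lowest exceeded every other library. The difference was 4.04 ± 0.42 (adjusted p = 0.000325), and the group mean was 21.4 times that of healthy control and 19.4 times that of disease. No alternative ended this call.

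S100g, a small calcium-binding protein of calcium-transporting epithelia and a classical target of active vitamin D, rose with a difference of 1.22 ± 0.25 (adjusted p = 0.0356). Its values were 79.01, 88 and 323.8 in healthy control, 87.2, 107.8 and 190.4 in disease and 204.9, 282.7 and 323 in RYGB. All RYGB libraries exceeded 11 of the 12 others, and healthy control library 4, at 323.8, was as high as the highest of them. Pth1r, the parathyroid hormone receptor, rose by a smaller step of 0.57 ± 0.12 (adjusted p = 0.0341), from 7100, 9291 and 12370 in healthy control and 7120, 10090 and 11840 in disease to 12300, 14560 and 15120 in RYGB. The ranges touched only at healthy control library 4 (12370) and RYGB library 3 (12300). The call of S100g was lost without disease 1, 2 or 6 or RYGB 1, 2, 5 or 6 (adjusted p up to 0.0926) and with edgeR (0.0559). That of Pth1r was lost without healthy control 1, 5 or 6, disease 2 or 6, or RYGB 1, 2, 4, 5 or 6 (up to 0.0809).

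These 3 were the members among the 16 tested genes of vitamin D and calcium transport, and none was lower than both groups. Over all tested genes, 0.622% were higher members. Cyp24a1, the enzyme that inactivates vitamin D, had 4332, 6865 and 11710 in healthy control, 2621, 3576 and 5938 in disease and 1410, 3179 and 3823 in RYGB. It was lower against healthy control (log2 difference -1.35, adjusted p = 0.0122) and did not pass against disease (-0.53, adjusted p = 0.292). The calcium channel gene Trpv5 and the calcium-binding protein gene Calb1 of the distal tubule passed neither comparison. The list's median difference was -0.12, against -0.01 over all tested genes. Its median was 0.1 against healthy control and 0.03 against disease, so its sign depended on the comparison. The 3 members were thus not matched by a clear shift of the list.

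Epo, the hormone that drives red cell formation, was the next of the secreted products. It stood at 0, 3.898 and 8.405 in healthy control and 3.92, 8.097 and 12.78 in disease, close to the floor of detection. The RYGB libraries held 188.5, 94.57, 63.38, 58.66, 32.64 and 13.17, against at most 12.78 elsewhere. Only 1 library outside RYGB (disease 3) reached the filter's 10 normalised reads. The difference was 3.24 ± 0.47 (adjusted p = 0.00878). In a fit with a pseudocount of 0.1 in place of 1 the call was lost, and every other alternative kept it. Hif3a, an alpha subunit of the hypoxia-inducible factors, had 0, 6.229 and 12.27, then 1.697, 3.365 and 20.04, and 9.835, 41.67 and 52.57 in RYGB, a difference of 2.59 ± 0.51 (adjusted p = 0.0223). RYGB libraries 3 (9.835) and 5 (19.78) overlapped with healthy control library 4 (12.27) and disease library 5 (20.04). Its call was lost without healthy control 1 or RYGB 1, 4 or 6 (adjusted p up to 0.06) and with a pseudocount of 0.1 (0.0747).

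No other of the 18 tested genes for erythropoietin and oxygen sensing was a member, and the list's median difference was -0.05. Vegfa, the hypoxia-responsive endothelial growth factor, had means of 7984, 7885 and 9743 in healthy control, disease and RYGB, and passed neither comparison (adjusted p = 0.133 and 0.154). Egln3, Adm, Pdk1 and Ankrd37, further genes known to respond to low oxygen, also passed neither.

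**Figure D2:**
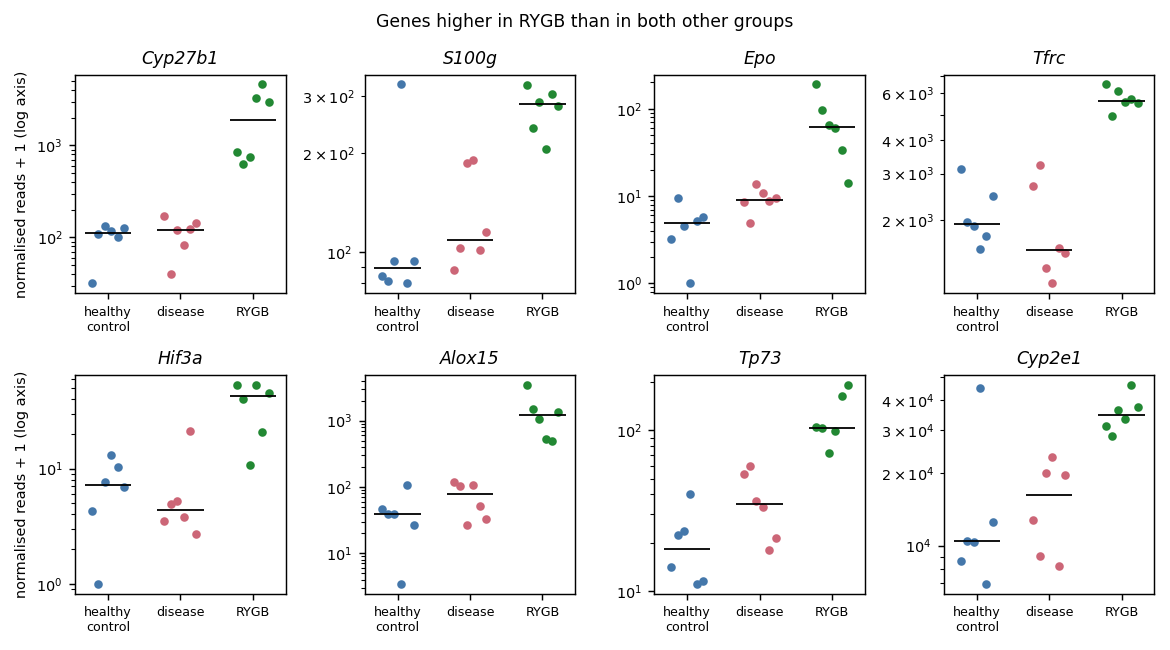
Normalised reads + 1 (log axis) of 8 genes higher in RYGB than in both other groups, with 1 point per library and a bar at the group median. Cyp27b1, Epo, Tfrc, Alox15 and Tp73 show no overlap between RYGB and the 12 other libraries; healthy control library 4 reaches the RYGB range for S100g (323.8) and Cyp2e1 (45160).

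Genes of iron handling moved in both directions. Tfrc, the receptor that takes up transferrin-bound iron, had 1563, 1938 and 3110 in healthy control, 1157, 1542 and 3227 in disease and 4940, 5638 and 6485 in RYGB. The lowest RYGB library exceeded the highest of the others by a wide margin, and the RYGB libraries varied little among themselves. The difference was 1.57 ± 0.18 (adjusted p = 0.000768), and the call held under every alternative. Aco1, the cytosolic aconitase that doubles as an iron sensor, had a difference of 0.68 ± 0.18 and passed against healthy control (adjusted p = 0.0353) but not against disease (0.119).

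Hmox1, which breaks down haem and releases its iron, fell the most of the iron genes. Its values were 110.4, 306 and 2605 in healthy control, 164.9, 215.8 and 2332 in disease, and 42.66, 53.13 and 84.06 in RYGB. All 6 RYGB libraries lay below all 12 others, and within the other groups 3 libraries stood far above the rest (2605 in healthy control 1, 1558 and 2332 in disease 2 and 4). The difference was -2.71 ± 0.60 (adjusted p = 0.04). Leaving out any of healthy control 1, 2, 3, 5 or 6, disease 2, or RYGB 1, 2, 4, 5 or 6 ended the call (adjusted p up to 0.1), as did a fit with no mean-variance trend (0.0531).

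Heph, a ferroxidase needed for iron export, fell from 417, 649.9 and 878.6 in healthy control and 431.6, 586.9 and 744.9 in disease to 270.2, 379.4 and 446.5 in RYGB (-0.72 ± 0.14, adjusted p = 0.0275). Only RYGB library 1 (446.5) lay above the lowest library of each other group. Without disease 1, 2 or 6 or RYGB 2 or 4 the adjusted p rose, to at most 0.0734. Of the 21 tested iron genes, 1 was higher and 2 were lower than both groups, and the ferritin genes Fth1 and Ftl1 passed neither comparison. The list's median difference was 0.03.

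Ahsp, which stabilises free alpha globin in red cell precursors, had 2.994, 7.202 and 17.53 in healthy control, 3.083, 5.886 and 12.74 in disease and 16.54, 21.54 and 44.31 in RYGB. Only RYGB library 1 (16.54) fell below a library of another group (healthy control 1, 17.53). The difference was 1.79 ± 0.33 (adjusted p = 0.0214), and the call was lost without healthy control 3 or RYGB 6 (adjusted p up to 0.0636). Alas2, which starts haem synthesis in red cell precursors, had 2.453, 118.7 and 282.6, then 32.25, 177.9 and 234, and 371.4, 559.3 and 951.7 in RYGB. Unlike Ahsp, Alas2 showed no overlap between RYGB and the other libraries, but it passed only against healthy control (adjusted p = 0.0374) and not against disease (0.108). All 4 tested erythroid markers were higher on average in RYGB, and their summed level ran from 4192 to 9123 in healthy control, 3933 to 11020 in disease and 6213 to 11720 in RYGB, most of it from Slc4a1, which intercalated cells of the kidney also express.

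Sptb, the beta spectrin of the red cell membrane skeleton, had 407.8, 517.7 and 684.4 in healthy control and 527.1, 646 and 732.5 in disease. It rose to 851.5, 877.1 and 1111 in RYGB (0.69 ± 0.10, adjusted p = 0.0123), with no overlap. No alternative ended the call. Sptb met neither of the stricter cutoffs on adjusted p (0.0123) and on the smaller difference (0.56), which were not among these alternatives. Hebp1, a haem-binding protein, rose by 0.89 ± 0.15 (adjusted p = 0.0189), from 96.28, 126.5 and 193.8 and from 126.4, 153.7 and 192.7 to 218.6, 257.9 and 334.8. Its adjusted p rose to 0.0535 at most, without disease 2 or RYGB 4. Among 10 tested platelet and megakaryocyte genes, 3 were members: Itga2b, a subunit of the platelet fibrinogen receptor (0.63 ± 0.14), Pf4, a chemokine of platelet granules (1.11 ± 0.25), and Mpig6b, an inhibitory platelet receptor (0.98 ± 0.22). Over all tested genes, the share of higher members was 0.622%. Each of the 3 was near the threshold (adjusted p = 0.0425, 0.0416 and 0.0455). Each lost its call when any of healthy control 1, 2, 5 or 6 or RYGB 1, 2, 4, 5 or 6 was left out, and for some of them when healthy control 3 or disease 1, 2 or 6 was. The highest adjusted p was 0.115 for Itga2b, 0.0926 for Pf4 and 0.117 for Mpig6b. Without a filter on low values the calls of all 3 were lost as well (0.0502, 0.0539 and 0.0602), that of Itga2b also with no mean-variance trend (0.0527), and that of Mpig6b with edgeR (0.0517), a minimum of 50 reads (0.0526) or only the compared groups fitted (0.0624). With the length index described at the end, 0 of the 3 remained. The platelet list's median difference was 0.45, and its summed level ran from 1271 to 1673, from 1003 to 1956 and from 1535 to 2205 in RYGB. The platelet and red cell lists, and Pf4, Mpig6b, Itga2b and Sptb with them, were chosen after their values were seen. In bulk tissue, more cells of a type and more RNA per cell cannot be told apart, and how much blood each piece held was not tested.

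Alox15, a lipoxygenase that oxygenates arachidonic and linoleic acid, had the largest difference of the named higher members, 4.69 ± 0.55 (adjusted p = 0.000988). It stood at 2.453, 38.27 and 105.1 in healthy control and 25.55, 75.9 and 119.6 in disease. In RYGB libraries 1 to 6 it had 3483, 1497, 1072, 526.4, 499.5 and 1343 normalised reads. Every RYGB library was at least several times the highest other library, and every alternative kept the call. Alox15 was the only member among 24 tested lipoxygenase, prostaglandin and epoxide genes, whose median difference was 0.14. Eosinophils and macrophages are known to express it. Of 10 eosinophil and mast cell markers in the table, 8 stayed under 10 normalised reads in at least 12 libraries, and the list's sum ran from 649.2 to 1617, from 569.2 to 1514 and from 780.9 to 1420 in RYGB. Over 12 macrophage markers the sum ran from 5411 to 7372, from 8356 to 10670 and from 7372 to 10240. These sums did not separate RYGB from both groups. Only 2 of the eosinophil and mast cell markers passed the filter, so their sum cannot show how many of these cells were present. Which cells held the Alox15 reads was not tested.

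Tp73, a transcription factor of the p53 family, had 10.09, 17.27 and 39.25 in healthy control, 16.96, 33.73 and 58.79 in disease and 71.03, 102.8 and 191.6 in RYGB. No libraries overlapped, the difference was 2.22 ± 0.30 (adjusted p = 0.00672), and no alternative ended the call. It was the only member among 18 tested p53 family and target genes. The known p53 target Cdkn1a, a cell cycle inhibitor, was higher against healthy control (log2 difference 1.62, adjusted p = 0.00322) and not against disease (-0.27, adjusted p = 0.617).

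Further higher members without overlap between RYGB and the rest included Mettl21b, a lysine methyltransferase. Its values were 30.67, 62.78 and 86.34, then 50.59, 59.2 and 82.22, and 112.6, 213.9 and 279.4 in RYGB (1.72 ± 0.21, adjusted p = 0.000651). Ccer2 had 45.85, 72.51 and 88.31, then 54.81, 89.4 and 102.6, and 113.5, 342.5 and 481.5 in RYGB (1.85 ± 0.26, adjusted p = 0.00318). Samd11 rose by 0.97 ± 0.14 (adjusted p = 0.00302), from medians of 121.5 and 113.8 to 221.9. Mgst1, a membrane-bound glutathione transferase, rose by 0.81 ± 0.12 (adjusted p = 0.00353), from medians of 2789 and 2625 to 4881, and its RYGB range of 4551 to 5576 lay above the highest other library at 3959. Ttc36 rose by 0.72 ± 0.15 (adjusted p = 0.0255), with a lowest RYGB value of 3954 just above the highest other value of 3860. Ttc36 lost its call without healthy control 1, 2, 3 or 6, disease 1 or 2, or RYGB 2 or 6 (adjusted p up to 0.0761).

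Inmt, a methyltransferase of indole amines, rose from 1117, 1485 and 3501 and from 847.1, 1793 and 2163 to 3417, 5401 and 6842 (1.70 ± 0.23, adjusted p = 0.00164), overlapping at healthy control library 4 (3501). Gamt, which makes creatine from guanidinoacetate, rose from 599.2, 935.6 and 1391 and from 595.8, 905.1 and 1441 to 1375, 2241 and 2695 (1.21 ± 0.20, adjusted p = 0.0072), and RYGB library 3 (1375) lay within the other groups. Cyp2e1, a cytochrome P450 that oxidises ethanol, acetone and other small molecules, had 6951, 10410 and 45160, then 8204, 16240 and 23400, and 28490, 34940 and 46400 in RYGB (1.40 ± 0.30, adjusted p = 0.0416). Leaving out healthy control library 4 brought its adjusted p to 0.00302, and leaving out any of 14 other libraries (all but disease 3, 4 and 6) ended the call, with an adjusted p of up to 0.0984. It was also lost with edgeR (0.0736) and with no mean-variance trend (0.0556).

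Cyp2d4 rose by 1.13 ± 0.23 (adjusted p = 0.0308) and Cyp2d2 by 1.04 ± 0.21 (adjusted p = 0.0241). These are drug-metabolising P450 paralogues, and reads that fit several of them were not counted to a gene, so their split is uncertain. Slc6a20, an imino acid transporter of the tubule brush border, rose from medians of 407 and 416 to 658.7 (0.70 ± 0.16, adjusted p = 0.0444). Healthy control library 4 was the highest of the other libraries for Cyp2d4 (704), Cyp2d2 (3216) and Slc6a20 (713.8), and lay within the RYGB range for each. Cyp2d4 lost its call without healthy control 1, 2, 3, 5 or 6 or RYGB 1, 4, 5 or 6 (adjusted p up to 0.0875) and Cyp2d2 without healthy control 1, disease 1 or 2, or RYGB 4, 5 or 6 (up to 0.0644). Slc6a20 lost it without any of 14 libraries (all but healthy control 4, disease 3 and 4 and RYGB 3, up to 0.111), and with no filter (0.0505), quantile normalization (0.0525) or no mean-variance trend (0.0579). Of 18 tested P450 and conjugating enzymes, 2 were higher and 1 lower than both groups, with a list median of 0.36.

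The genes of this paragraph, like Inmt and Cyp2d2, were chosen after their values were seen. Asgr1, a subunit of the asialoglycoprotein receptor best known from liver, rose by 1.15 ± 0.17 (adjusted p = 0.0072), with medians of 190.8 and 170 against 384.2. Fgfr3 and Fgfr4, receptors for fibroblast growth factors, rose by 0.65 ± 0.13 (adjusted p = 0.0283) and 0.82 ± 0.17 (adjusted p = 0.0293). Fgfr3 lost its call without healthy control 1, 2 or 5 or RYGB 1, 4, 5 or 6 (up to 0.0722), and Fgfr4 without those, healthy control 6, disease 1 or 2 or RYGB 2 (up to 0.08). Gzmm and Gzmk, granzymes of cytotoxic lymphocytes, were scarce. Gzmm had 2.395, 3.981 and 5.87, then 1.697, 5.399 and 16.96, and 16, 18.58 and 23.24 in RYGB (1.83 ± 0.33, adjusted p = 0.0237). Gzmk rose by 1.16 ± 0.25 (adjusted p = 0.0383), to between 10.38 and 20.76 from at most 9.812 elsewhere, so that it met the filter of 10 normalised reads only in the RYGB libraries. Gzmm lost its call without disease 1 or RYGB 5 or 6 (up to 0.0607), and Gzmk without healthy control 1 or 6, disease 1, 2, 3 or 6, or RYGB 1, 2, 3 or 4 (up to 0.0915) and with voom (0.0546). The summed level of 12 T and natural killer cell markers did not rise with them: it ran from 412.1 to 727.4 in healthy control, 594.1 to 859.4 in disease and 463.9 to 562.9 in RYGB.

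RT1-DOa, the alpha chain of a rat class II molecule that tempers peptide loading, rose from 12.27, 23.44 and 35.3 and from 11.88, 23.34 and 43.16 to 44.09, 59.67 and 82.56 (1.35 ± 0.27, adjusted p = 0.0209). The other 10 tested class II presentation genes were no members. Its adjusted p reached 0.0531 without healthy control 1 or RYGB 6. Hk3, the hexokinase of white blood cells, rose by 1.43 ± 0.24 (adjusted p = 0.0118), from medians of 32.6 and 35.44 to 91.51. Ccl24, a chemokine that attracts eosinophils, rose by 1.00 ± 0.18 (adjusted p = 0.011), from medians of 64.08 and 74.52 to 136.9. Hk3 and Ccl24 were also chosen after their values were seen.

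The lower members held a large block of mitosis genes. Of 23 tested cell cycle genes, 7 were lower than both groups (Birc5, Cdk1, Mki67, Nusap1, Plk1, Prc1 and Tpx2) and none was higher. Against the pooled mean 16 of the 23 were called lower, all 23 had a negative difference, and the median was -1.19. Over all 13988 tested genes, 0.701% were lower members, 3.14% were called lower against the pooled mean, and 7208 had a negative difference. Prc1, which bundles microtubules of the dividing spindle, had 29.44, 89.55 and 112.8 in healthy control, 61.22, 96.43 and 142.6 in disease and 18.79, 22.04 and 33.02 in RYGB (-1.81 ± 0.24, adjusted p = 0.0023). The one overlap was healthy control library 4 (29.44). Tpx2, a spindle assembly factor, fell from 66.23, 101.1 and 115 and from 86.78, 115.9 and 194.3 to 28.74, 46.26 and 62.29 (-1.30 ± 0.19, adjusted p = 0.00735), without overlap.

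Birc5, the survivin subunit of the chromosomal passenger complex, fell from 7.359, 15.4 and 23.01 and from 15.46, 21.15 and 29.9 to 3.278, 6.274 and 7.618 (-1.47 ± 0.23, adjusted p = 0.0172). Mki67, the proliferation marker Ki-67, fell from 39.25, 153 and 203.8 and from 109.5, 168.3 and 288.5 to 35.28, 50.72 and 74.31 (-1.51 ± 0.28, adjusted p = 0.0274). Cdk1, the kinase that drives entry into mitosis, fell from medians of 43.32 and 53.21 to 18.59 (-1.19 ± 0.22, adjusted p = 0.0367). Healthy control library 4 lay within the RYGB range for all 3 (7.359 for Birc5, 39.25 for Mki67 and 14.72 for Cdk1). The 7 cell cycle members became 14 when that library was left out, and between 2 and 14 in all fits without 1 library. Birc5 lost its call without healthy control 1 (adjusted p = 0.0537). Mki67 lost it without healthy control 1, 2, 3, 5 or 6 or RYGB 1, 2 or 6 (up to 0.0811), and Cdk1 without these or RYGB 4 or 5 (up to 0.0863).

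A further 17 members belong to a list of 24 tested spindle, kinetochore and replication genes that was drawn up after the members were seen, so this count describes them and supports nothing. Its sum over 25 genes ran from 745.7 to 1225 normalised reads in healthy control, 699.5 to 1258 in disease and 363.8 to 629 in RYGB. The same sum over the 23 genes of the cell cycle list overlapped: 4945 to 9798, 6798 to 10420 and 4539 to 9334 in RYGB. With the length index, 3 of the 17 remained. Ckap2 is a microtubule-binding spindle protein chosen after its values were seen. It fell from 9.812, 31.25 and 38.34 and from 18.1, 36.91 and 49.83 to 3.307, 5.61 and 7.65 (-2.16 ± 0.29, adjusted p = 0.00259). Every alternative that tested it kept the call. No RYGB library reached 10 normalised reads, so Ckap2 entered the test only through the other groups. These transcripts are scarce in a tissue of mostly resting cells, and a fall of their level in fewer dividing cells cannot be told apart from a fall per cell.

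Many promoters of mitosis genes are known to hold a short element, TTTGAA, often beside CCAAT boxes. The 120 bases before the RefSeq start (GRCr8 assembly, which is not the build of the counts) are shown for 4 of the 24 mitosis members, chosen because they hold the element and were described above. Each runs 5′ to 3′ along the gene, with TTTGAA and CCAAT (or its reverse complement ATTGG) in capitals.
Birc5, chr10:103572026-103572145, plus strand: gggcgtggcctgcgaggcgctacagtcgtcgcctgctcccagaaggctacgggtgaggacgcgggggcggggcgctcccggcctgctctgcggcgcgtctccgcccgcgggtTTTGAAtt
Cdk1, chr20:19265173-19265292, plus strand: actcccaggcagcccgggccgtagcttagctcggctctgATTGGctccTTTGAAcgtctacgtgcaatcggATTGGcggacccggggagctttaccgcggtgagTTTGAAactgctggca
Prc1, chr1:143659361-143659480, plus strand: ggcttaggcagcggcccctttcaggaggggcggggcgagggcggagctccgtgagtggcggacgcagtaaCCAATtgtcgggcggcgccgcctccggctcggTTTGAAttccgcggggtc
Mki67, chr1:199952594-199952713, minus strand: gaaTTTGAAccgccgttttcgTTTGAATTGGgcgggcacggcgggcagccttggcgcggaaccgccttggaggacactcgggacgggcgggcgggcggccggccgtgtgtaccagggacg

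Searched on both strands, TTTGAA was in 7 of the 22 mitosis members with a promoter in the table, in 3.91% of 9378 tested genes with one and in 7% of all 27457 promoters. CCAAT was in 13 of the 22, against 22.2% and 20.1%. In Mki67 a TTTGAA and an ATTGG overlap by 1 base. The control motif ACGTG, the core of the hypoxia response element, was in 5 of the 22, against 12.2% and 9.26%. TTTGAA and CCAAT were picked after the members were seen. A match describes letters in this window and is no evidence of binding, and the prints show that Birc5 has 1 TTTGAA and no CCAAT while Cdk1 has 2 of each.

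**Figure D3:**
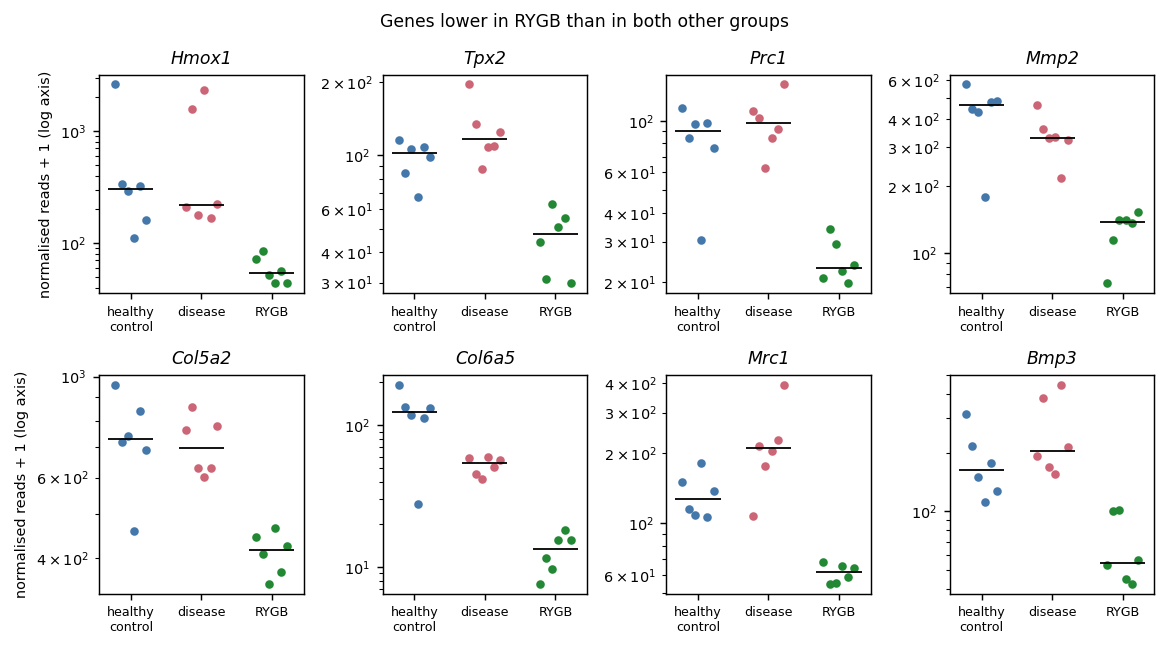
Normalised reads + 1 (log axis) of 8 genes lower in RYGB than in both other groups, with 1 point per library and a bar at the group median. Hmox1, Tpx2, Mmp2, Col6a5, Mrc1 and Bmp3 show no overlap; healthy control library 4 is the lowest of the 12 other libraries for Prc1 (29.44), Mmp2 (176.6), Col5a2 (456.3) and Col6a5 (26.98).

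Mmp2, a secreted gelatinase, had 176.6, 461.5 and 574 in healthy control, 217.4, 329.3 and 465.9 in disease and 71.65, 137.1 and 152.1 in RYGB, without overlap (-1.58 ± 0.21, adjusted p = 0.00262). Col5a2, a fibrillar collagen chain, fell from 456.3, 728.5 and 958.6 and from 600.8, 695.8 and 857.4 to 349.7, 415.4 and 464.7 (-0.80 ± 0.13, adjusted p = 0.00431). Col3a1, the collagen of reticular fibres, fell from 880.7, 3499 and 3753 and from 2824, 3233 and 3956 to 789, 1278 and 1888 (-1.25 ± 0.25, adjusted p = 0.035). Healthy control library 4 was again the one that lay in the RYGB range, at 456.3 for Col5a2 and 880.7 for Col3a1. Dcn, the proteoglycan decorin, fell by the smallest step, from medians of 1759 and 1643 to 1085 (-0.53 ± 0.10, adjusted p = 0.0289).

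Those 4 were the matrix members, of 22 tested matrix and fibrosis genes, and none was higher. Against the pooled mean 11 were called lower, 19 of 22 differences were negative, and the median was -0.52. The shares over all tested genes were 0.701% lower members, 3.14% called lower and 7208 of 13988 negative. The matrix members became 11 without healthy control library 4 and ranged from 2 to 11 over all fits that left out 1 library. Col3a1 lost its call without healthy control 1, 2, 3, 5 or 6 or RYGB 1, 2 or 5 (adjusted p up to 0.091) and Dcn without disease 2 or 6 or RYGB 2, 5 or 6 (up to 0.0745) and with only the compared groups fitted (0.0546). Col1a1, the main fibrillar collagen of scar, had a difference of -1.31 (adjusted p = 0.0125 against the pooled mean) but passed only against disease (0.0163), not against healthy control (0.058). Col6a5, a collagen VI chain outside the list, fell from 26.98, 123.8 and 191.7 and from 40.46, 52.67 and 59.03 to 6.614, 12.44 and 17.31 (-2.56 ± 0.30, adjusted p = 0.00213), the largest fall among the named matrix genes. Of the other collagen members, Col11a1 was lower and Col27a1 higher. Col11a1, a fibrillar chain, fell from 98.12, 341.2 and 407.6 and from 211.5, 244.7 and 346.2 to 111.5, 136.5 and 156.5 (-1.02 ± 0.22, adjusted p = 0.0432). Col27a1, a fibrillar chain known from cartilage, rose from 439.3, 519.2 and 1109 and from 514.3, 552.2 and 871.5 to 616.4, 1416 and 1657 (1.06 ± 0.20, adjusted p = 0.0226). For Col27a1 the values of healthy control library 4 (1109), disease libraries 3 and 5 (871.5 and 815.5) and RYGB library 3 (616.4) overlapped, and its call was lost without disease 1 or 2 or RYGB 4, 5 or 6 (up to 0.0567). Col11a1 lost its call without any of 14 libraries (all but healthy control 4 and disease 3, 4 and 5, up to 0.1) and with no mean-variance trend (0.055). Thbs2, a matrix-associated thrombospondin, fell by 1.04 on the log2 scale (SE 0.16, adjusted p = 0.00686) and Fndc1, a fibronectin-domain protein, by 1.52 (SE 0.22, adjusted p = 0.00257). Col11a1, Col27a1, Thbs2 and Fndc1 were chosen after their values were seen. No alternative that tested them ended the calls of Col6a5, Thbs2 or Fndc1. Col6a5 and Fndc1 entered the test only through the other groups.

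Bmp3, a secreted factor of the BMP family, had 110.4, 162.1 and 315.5 in healthy control, 154.6, 202 and 444 in disease and 41.54, 53.45 and 100.5 in RYGB, without overlap (-1.70 ± 0.26, adjusted p = 0.0115). Grem1, a secreted BMP antagonist, fell from 556.8, 1257 and 1602 and from 691.4, 1463 and 2065 to 311.4, 511.3 and 1004 (-1.25 ± 0.27, adjusted p = 0.037). Healthy control library 4 (556.8) and disease library 4 (691.4) lay within its RYGB range. Pdgfra, the growth factor receptor that marks fibroblasts, fell from 1693, 2595 and 2768 and from 1489, 2171 and 2841 to 1258, 1422 and 1587 (-0.66 ± 0.12, adjusted p = 0.0298). The summed level of the 8 mesangial, pericyte and smooth muscle markers, to which Pdgfra belongs, ran from 7492 to 9488, from 6465 to 9186 and from 6421 to 9715 in RYGB, and the other 7 were no members. Grem1 lost its call without healthy control 1, 2, 3, 5 or 6, disease 1 or 2 or RYGB 4, 5 or 6 (up to 0.1), and Pdgfra without disease 1, 2 or 6 or RYGB 1, 2, 5 or 6 (up to 0.075). Of 23 tested TGF-beta and BMP genes, Bmp3 and Grem1 were the only members.

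Innate immune genes on the lower side included C6, a component of the membrane attack complex. It had 31.89, 40.88 and 50.48 in healthy control, 48.45, 60.93 and 67.27 in disease and 7.65, 15.02 and 25.9 in RYGB, without overlap (-1.60 ± 0.21, adjusted p = 0.00328). No alternative ended this call, but C6 entered the test only through the other groups. The median difference of the 17 tested complement genes was -0.05. Cfb, the protease of the alternative pathway, was higher against healthy control (log2 difference 0.90, adjusted p = 0.00368) but did not pass against disease (0.53, adjusted p = 0.0688).

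Mrc1, the mannose receptor of tissue macrophages, fell from 105.9, 126 and 181.5 and from 107.1, 209 and 393.8 to 54.04, 60.67 and 67.24 (-1.43 ± 0.19, adjusted p = 0.0091). It was the only macrophage marker of 11 tested that was a member, and the list's median difference was -0.05. Adgre1, Cd68, C1qa and C1qb passed neither comparison. Colec12, a scavenger receptor, fell from medians of 400.2 and 380.3 to 170.9 (-1.13 ± 0.16, adjusted p = 0.00243), and Gpr34, a lipid receptor known from macrophage-lineage cells, from medians of 62.55 and 52.7 to 26.07 (-1.36 ± 0.20, adjusted p = 0.00321). Slpi, a secreted protease inhibitor, fell from 17.17, 34.95 and 39.44 and from 27.16, 56.1 and 101.7 to 2.186, 8.697 and 18.01 (-2.32 ± 0.35, adjusted p = 0.0115). Colec12, Gpr34 and Slpi were chosen after their values were seen, and every alternative that tested them kept their calls. Slpi entered the test only through the other groups.

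Among metabolic genes on the lower side, Cyp7b1, which hydroxylates oxysterols and some steroids, fell from 171.7, 204.2 and 252 and from 136.8, 177.6 and 236.7 to 70.66, 99.04 and 124.2 (-0.98 ± 0.14, adjusted p = 0.00343), without overlap and under every alternative. Me2, the mitochondrial malic enzyme, fell by 0.64 on the log2 scale (SE 0.11, adjusted p = 0.0267), from medians of 924.6 and 1081 to 629.5. Pir, an iron-binding nuclear protein, fell by 0.57 (SE 0.11, adjusted p = 0.0371), and Rtn1, a protein that shapes the endoplasmic reticulum, by 0.69 (SE 0.13, adjusted p = 0.0289), both without overlap. Their calls were lost without healthy control 1, 2 or 5 or RYGB 1, 5 or 6 for Me2 (up to 0.0762). For Pir this held without disease 1, 2 or 4 or RYGB 1, 2, 5 or 6 (up to 0.0907) or with only the compared groups fitted (0.0695), and for Rtn1 without disease 1 or 2 or RYGB 1, 4 or 5 (up to 0.0748).

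Prom1, a membrane protein of tubular progenitor-like cells counted here among the tubular injury genes, fell from 1477, 1777 and 2352 and from 1081, 1339 and 1492 to 924.7, 953.2 and 1083 (-0.65 ± 0.10, adjusted p = 0.0395). Only RYGB library 3 (1083) overlapped, with disease library 2 (1081). It was the only member among 18 tested injury genes, and lost its call without disease 1, 4 or 6 or any RYGB library but 3 (up to 0.098), with voom (0.0616) and with no mean-variance trend (0.0534). Hao1, which oxidises glycolate to glyoxylate, had 4.906, 147.5 and 211.3 in healthy control, 11.76, 24.49 and 54.31 in disease and 0, 3.839 and 8.901 in RYGB (-3.62 ± 0.63, adjusted p = 0.0428). Disease lay between the others on the median without passing against healthy control (-1.89, adjusted p = 0.291), and healthy control library 4 (4.906) lay in the RYGB range. Aox1, aldehyde oxidase, fell by 0.69 (SE 0.14, adjusted p = 0.0288). Hao1 lost its call without healthy control 2, disease 1, 2, 4 or 6 or RYGB 1, 2, 4 or 6 (up to 0.103), with a pseudocount of 10 (0.121), voom (0.0949) or no mean-variance trend (0.0554). Aox1 lost it without disease 1 or 2 or RYGB 2, 4, 5 or 6 (up to 0.0759) and with only the compared groups fitted (0.0569). Hao1 and Aox1 were chosen after their values were seen.

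**Figure D4:**
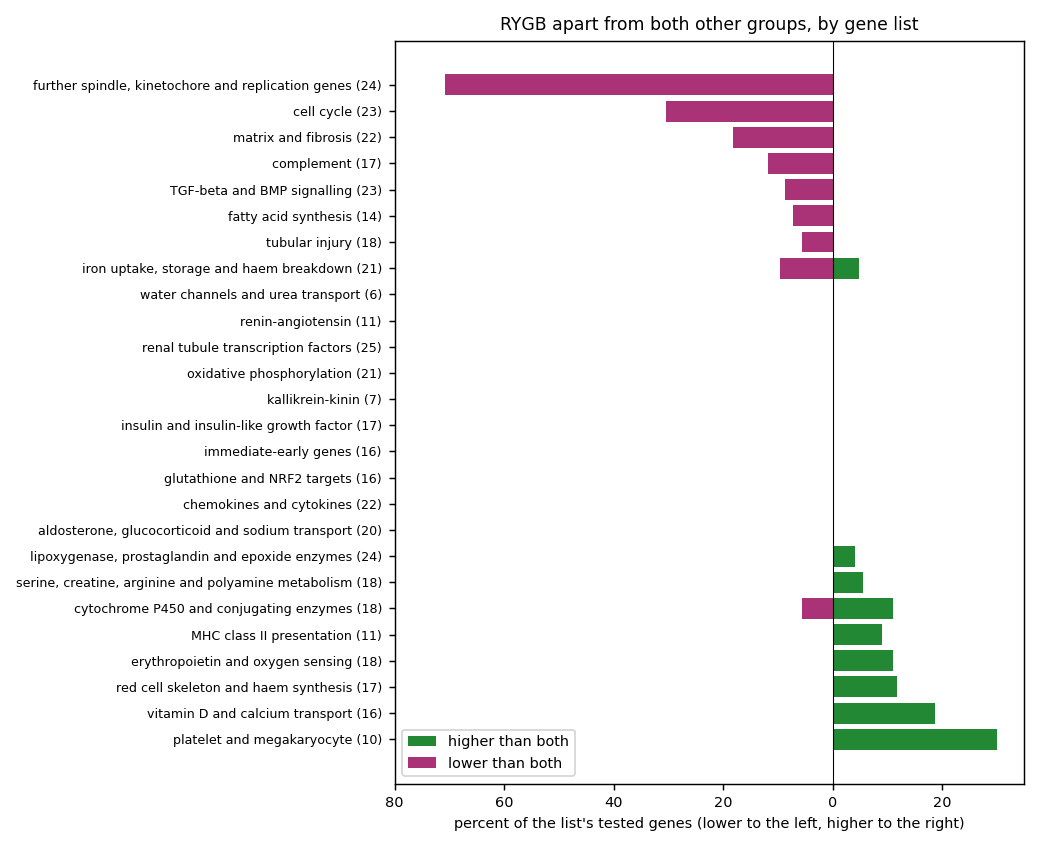
Percent of each list's tested genes (number in brackets) that were higher (green, right) or lower (purple, left) in RYGB than in both other groups, for pathway lists with at least 2 genes called against the pooled mean. The longest bars are spindle genes (17 of 24, a list drawn up after the members were seen) and cell cycle genes (7 of 23) on the lower side; the background over all tested genes is 0.622% higher and 0.701% lower.

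Of 60 gene lists, most had no member. Lists without any included phosphate transport, the renin-angiotensin system, the kallikrein-kinin genes, glucose transport and gluconeogenesis, fatty acid oxidation, cholesterol synthesis, the unfolded protein response, interferon response, podocyte markers and each tubular segment. The title of the study concerns podocytes, and the median difference of the 9 tested podocyte markers was -0.08. At the edge of the rule, Ttk (adjusted p = 0.0495), Sox13 (0.0494) and Acy3 (0.048) were the last members inside, and RGD1311575 (0.0503), Sumf1 (0.0504) and Pax2 (0.0504) the first outside. Ttk, a spindle checkpoint kinase, held 0, 1.504 and 4.503 in RYGB, so its difference of -2.52 ± 0.53 rests on a few reads. Pax2, a transcription factor of kidney development, had 263, 281.3 and 335.4, then 230.8, 300.4 and 370, and 383.6, 390.3 and 481.9 in RYGB, without overlap.

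Within the 6 RYGB libraries, the members whose log2 values followed Cyp27b1 most closely were Echdc2 and Zfyve21 (Pearson r = 0.93 each), Gprc5c (0.88), Col6a5 (0.87) and C6 (0.80). These are descriptions over 6 libraries, for genes picked as the highest of all members. The libraries differed in depth (12470525 to 42713246 reads), and Cyp27b1 split replicates 1 to 3 from 4 to 6. Epo and Alox15 ran the other way in the same libraries, with r = -0.69 and -0.70. The RYGB replicates with the lowest Cyp27b1 values thus held the highest Epo values.

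The members also differed in gene length, which the rule did not use. Median length in the GRCr8 annotation was 12620 bases for the higher members (76 of 87 with a length), 40000 bases for the lower members (87 of 98) and 24970 bases for all tested genes with one (85.1%). In 4 length bins of equal gene number, from short to long, 36, 21, 12 and 7 members were higher and 8, 13, 30 and 36 were lower. All tested genes leaned the same way: the median log2 difference of RYGB minus healthy control was 0.17 in the shortest bin and -0.17 in the longest, and of RYGB minus disease 0.09 and -0.06. The 70 lower members outside the cell cycle, spindle and matrix lists had a median of 66840 bases (59 with a length).

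Each library was given a length index, the median log2 deviation of the genes in the shortest bin minus that in the longest. The index ran from -0.46 to 0.11 (median -0.18) in healthy control and from -0.48 to 0.38 (median 0.02) in disease. In RYGB it ran from -0.18 to 0.39 (median 0.18), so the groups overlapped. Healthy control library 4 (0.11) and disease library 3 (0.38) held the highest index of their groups, and RYGB library 3 (-0.18) the lowest of its group. The same libraries lay nearest the other side on the member genes. Whether the index accounts for their position was not tested. With this index as a covariate, an alternative added after the pattern was seen and computed from the same values, 43 members remained (18 higher and 25 lower), of which 42 were among the 185. Cyp27b1, Epo, Tfrc, Alox15, Tp73, Mettl21b, Ccer2, Samd11, Hebp1, Sptb, Inmt and Hk3 were still higher, and Col6a5, Mmp2, Dcn, Prc1, Ckap2, C6, Cyp7b1, Rtn1, Prom1, Slpi, Colec12, Gpr34, Thbs2 and Fndc1 still lower. Of the 69 members tracked by name, 43 were no longer called, with adjusted p-values of 0.0584 to 0.473. Among higher members the call was lost for S100g (difference 0.98 in place of 1.22, adjusted p = 0.219), Pth1r (0.39 in place of 0.57, adjusted p = 0.276) and Hif3a (2.01 in place of 2.59, adjusted p = 0.295). The same held for Ahsp, Mgst1, Ttc36, Gamt, Cyp2e1, Cyp2d2, Cyp2d4, Slc6a20, Asgr1, Fgfr3, Fgfr4, Gzmm, Gzmk, RT1-DOa, Ccl24, Itga2b, Pf4, Mpig6b, Col27a1, Sox13 and Acy3. Among lower members it was lost for Hmox1 (-2.42 in place of -2.71, adjusted p = 0.335), Tpx2 (-1.06 in place of -1.30, adjusted p = 0.114), Mki67 (-1.11 in place of -1.51, adjusted p = 0.344) and Bmp3 (-1.46 in place of -1.70, adjusted p = 0.173). Birc5, Cdk1, Ttk, Col3a1, Col5a2, Col11a1, Mrc1, Heph, Grem1, Pdgfra, Me1, Me2, Pir, Hao1 and Aox1 also lost it. None of the 43 changed direction. The cell cycle members went from 7 to 1, the further spindle, kinetochore and replication members from 17 to 3, the matrix members from 4 to 2 and the platelet members from 3 to 0. A length trend of this kind also moves with RNA integrity and with library preparation, for which the labels give no value, and their part in the members was not tested.

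**Figure D5:**
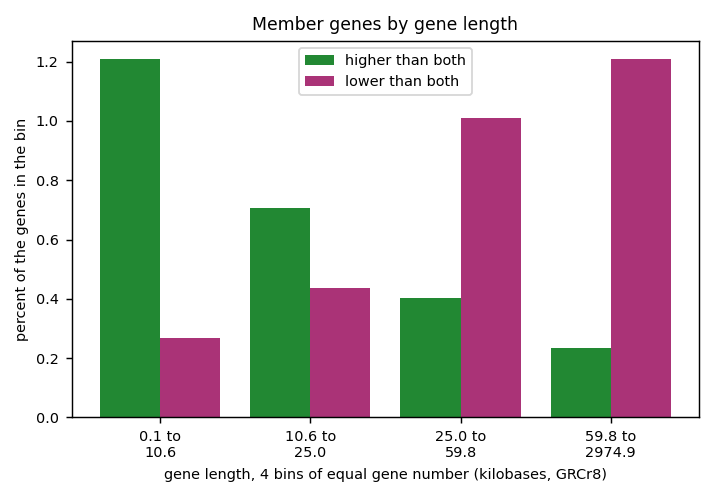
Percent of tested genes in each of 4 bins of gene length (kilobases, GRCr8 annotation) that were higher (green) or lower (purple) in RYGB than in both other groups. The higher share falls from 1.21% in the shortest bin to 0.235% in the longest, and the lower share rises from 0.269% to 1.21%.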

How the data were processed

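Messenger RNA libraries were made with a stranded kit, per the labels' protocols. Per the submitters' processing notes, FastQC 0.11.2, MultiQC 0.9, HTSeq 0.6.1p1 and DESeq2 were used with the rat genome Rnor 5.0; aligner and counting strand were not given in the sources used here. Deposited values are a signal, reads per gene divided by 1 size factor per library by the authors, per the file headers and the values. Multiplying back gave whole reads for 99.9946 to 100% of values (within 0.01), with size factors of 0.4014 to 2.022. The count test of edgeR on these reads called 254 members. Of 18423 rows, 3 name no gene (27.62 to 43.17% of the total for reads in no gene, 13.46 to 18.13% for non-unique reads, 0.06949 to 0.1137% for ambiguous reads) and were left out. Replicates differed beyond counting noise (chi-square per degree of freedom at least 21.43 over 45 pairs).

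The 13988 genes with at least 10 normalised reads in at least 6 libraries were tested on log2(value + 1), a scale that understates changes of scarce genes, with limma 3.58.1 in R 4.3.3 (mean-variance trend). A single fit of 3 group means over 18 libraries left 15 residual degrees of freedom. All tests were two-sided, with Benjamini-Hochberg adjustment within each comparison. Alternatives used edgeR 4.0.16, DESeq2 1.42.0, voom, other filters, pseudocounts and scalings, and fits without each library. The members and gene lists were chosen with earlier results of these data known. Of 966 listed symbols, 745 were tested.

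Among members, the text names the 10 largest in each direction without overlap (mean at least 100 in a group), up to 3 per list, the 3 nearest the threshold on each side, Cyp27b1, Alox15, Klk1c2 and Tfrc, and the 5 most like Cyp27b1. Every other named gene was chosen after its values were seen, from its role. On data simulated for the membership rule over 13884 genes, 34.8% of 1.5-fold, 83.6% of 2-fold and 95.4% of 4-fold changes were recovered. Of 200 genes changed only in disease, 0 were called, but the rule nearly fixes this count: RYGB must also differ from healthy control. Whether the recovered shares hold for the measured libraries was not tested. Gene lengths and promoters are RefSeq's for GRCr8, matched by symbol. Fewer than 80% of the members had a promoter there (57 of 87 higher, 71 of 98 lower), so a comparison of motif shares over all members is void.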

Additional observations from a re-analysis of the deposited data

Results flagged for a closer look

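Single libraries stood apart from the other 5 of their group for 23 of 216 gene and group combinations (72 genes in 3 groups), by a gap that chance gives for about 1 in 20 groups. Healthy control library 4 held 13 of them, and in each it lay toward the RYGB values. It was high for S100g (323.8 normalised reads, others 79.01 to 92.82), Cyp2e1 (45160, others 6951 to 12540), Cyp2d4 (704, others 190.6 to 361.6), Cyp2d2 (3216, others 993.6 to 1808), Inmt (3501, others 1117 to 2003), Asgr1 (412.1, others 169.8 to 201.9) and Col27a1 (1109, others 439.3 to 576.4). It was low for Mmp2 (176.6, others 430 to 574), Grem1 (556.8, others 1215 to 1602), Col3a1 (880.7, others 3067 to 3753), Cdk1 (14.72, others 38.34 to 49.11), Mki67 (39.25, others 144.4 to 203.8) and Ttk (0, others 14.09 to 19.76).

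Healthy control library 1 was low for Cyp27b1 (30.67, others 100.9 to 131.1) and high for Hmox1 (2605, others 110.4 to 337). Disease library 5 was high for Hif3a (20.04, others 1.697 to 4.259) and disease library 6 for Hao1 (54.31, others 11.76 to 27.41). Within RYGB, library 1 was high for Alox15 (3483, others 499.5 to 1497) and Fndc1 (24.25, others 9.835 to 13.17). RYGB library 2 was high for Slc6a20 (831.6, others 585.8 to 673) and Pax2 (481.9, others 383.6 to 400.7), and RYGB library 4 for Colec12 (201.1, others 165.1 to 175.1) and Thbs2 (144, others 68.85 to 93.46).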

How the results depend on the processing

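The 185 members became 499 with DESeq2, 813 with voom and sample weights (60.4% higher, against 47% in the 185), 34 where both adjusted p-values had to be below 0.01, 80 with both differences at least 1 on the log2 scale, 75 by lack of overlap alone with no test, 562 without healthy control 4 and disease 3, and 43 with the length index as a covariate (the last 2 chosen after seeing the data). Fits without 1 library gave 86 to 399, of which 84 to 184 were among the 185. Under the other alternatives they numbered 140 (a minimum of 50 reads) to 255 (quantile normalization).

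The 963 genes against the pooled mean became 1873 with DESeq2, 3580 with voom, 2122 without healthy control 4 and disease 3, and 169 with the length index, and 376 to 1740 without 1 library. Against healthy control, the 621 became 1602, 4805, 1656 and 90 under these, 1442 when only the compared groups were fitted, and 209 to 1506 without 1 library. Against disease, the 552 became 1098 with DESeq2, 1239 with voom and 1005 without healthy control 4 and disease 3, and 261 to 819 without 1 library. The 1 member called between disease and healthy control became 3 with quantile normalization, 5 with edgeR, 14 with DESeq2, 15 with voom, 8 without healthy control 4 and disease 3 and 0 with the length index, and 0 to 10 without 1 library. In these counts the members are those of the same fit. The cause of these shifts was not tested.

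Of 2291 values of single named genes over 32 settings, 415 lost their call, 21 gained one, and none changed sign. Of 69 members named, 30 kept their call without each library in turn and 21 under every one of the 32 settings that tested them. A few scarce genes were not tested in every setting. The stricter cutoffs on adjusted p and on the size of the difference were not among these settings. The median of all genes moved only between -0.017 and 0.009. With the replicate number as a block, 157 members were called (140 of the 185), 749 genes against the pooled mean, 496 against healthy control and 408 against disease. Under the block Hmox1, Pth1r, Gzmm, Gzmk, Dcn, Sox13, Me1, Mpig6b and Pir were not called (adjusted p 0.0517 to 0.0765). The numbers did not pair the libraries: same-numbered libraries correlated at 0.13 to 0.32 between healthy control and disease, -0.31 to 0.01 between healthy control and RYGB and -0.56 to 0.31 between disease and RYGB, and own numbers correlated best for 2, 0 and 1 of 6. The lower members with a mean under 100 normalised reads in every group (48 of 98) rest on few reads.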
